A study of Mus musculus with 10 samples.

Results

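Mitosis is run by a compact set of genes whose transcripts peak shortly before a cell divides. The genes described here are the mitotic cyclins, their kinase and its activating phosphatases, the Polo and Aurora kinases, the spindle checkpoint, the kinetochore, and the proteins that condense, separate and partition the chromosomes. They were listed by name, 37 genes in all, and a gene counted as measured when the array annotation gave at least 1 probe set to it alone. By this rule 36 of the 37 were measured, out of 18193 genes with a probe set of their own, through 84 probe sets. Ccnb1, the gene of cyclin B1, is assigned no probe set in the annotation used here, and no value is given for it.

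The study followed the embryonic mouse ovary at 5 stages counted in days post coitum, E11.5 and E12.5, then E14.5, E16.5 and finally E18.5, with 2 arrays per stage, 10 in all. Each array was hybridised with total RNA from a whole-ovary preparation of its own, and the duplicates of a stage are labelled as independent preparations. All groups differ by stage alone as far as the labels go, with no treatment, and strain and genotype are not given in the sources used here. Comparing stages asks how the transcripts of cell division changed while female germ cells stop dividing and enter meiosis.

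In a dividing cell, cyclin A and cyclin B activate the kinase Cdk1, the Cdc25 phosphatases remove its inhibitory phosphates, and Polo and Aurora kinases help build the spindle. The spindle checkpoint holds the anaphase-promoting complex in check until every kinetochore is attached to microtubules. Cdc20 then switches that complex on, securin and the cyclins are destroyed, separase cuts cohesin, and the cell divides. In the fetal ovary the germ cells first multiply as oogonia and then enter meiotic prophase, in which they stay arrested for a long time, while the surrounding somatic cells include both dividing and resting populations. The RNA came from whole ovaries, so fewer cells of a type and less RNA per cell cannot be told apart in any value below.

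Each array gave 45101 signals, 45037 of them from probe sets other than controls. E12.5 replicate 2 was left out of every value below: its log2 signals correlated with those of the other arrays at r of 0.413 to 0.465 across probe sets, which are not independent, against 0.874 to 0.965 among the other 9 arrays. In the Actb control the 3′ end read 10.6 times the 5′ end on the remaining E12.5 array, and 1.52 to 2.22 times in the 8 arrays from other stages, so E12.5 is described without a test. The same ratio for Gapdh was 0.755 and 0.778 at E11.5 and 1.28 and 1.06 at E18.5, so this measure of RNA quality moved with stage, and its part in the results was not tested. Unspiked control probe sets reached 18.7 to 33.5 at their 95th percentile in these 9 arrays. On the brightest tested probe set of each gene the lowest signal of a member was 39.9, for Cdc25c on one E18.5 array. Other tested probe sets of the members could read in or under that range, as 1 of Incenp did with 11.9 on one E18.5 array. The hybridisation dates in the instrument files fell into 3 sets, taken here as 3 runs of array washing and staining. E11.5 shared one with E12.5, E14.5 shared another with E16.5, and the E18.5 arrays had their own. Run and stage therefore cannot be told apart in a comparison between these runs, and within the first 2 runs each stage had fluidics modules of its own. The number of arrays, 2 per stage, limits the precision of every value.

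Between E11.5 and E18.5 most mitosis genes fell. Of the 36 genes, 28 were lower at E18.5, 2 were higher (Prc1 and Espl1) and 6 did not pass the test (Bub1, Smc4, Cdc25b, Incenp, Cenpe and Tacc3). With E12.5 replicate 2 added to the fit limma called 0 of the 36 (6 lower at an unadjusted p under 0.05). A gene passed when its adjusted p was under 0.05 in limma, with 1 mean per stage and the brightest tested probe set standing for the gene. Among all 13305 genes tested by the same rule 16.4% were lower and 13.3% higher, or 13.4% and 17.3% on signals left as deposited. The median change of the 36 genes was −1.11 on the log2 scale, against −0.004 over all genes tested, and signals left as deposited moved the second median to 0.12 and the first to −0.98. The falls of the 28 genes ran from 1.63-fold to 6.65-fold in stage means, with a median of 2.51-fold. In 29 genes both E18.5 arrays lay below both E11.5 arrays, against 34.4% of all genes. In 3 genes (Prc1, Espl1 and Smc4) they lay above both, against 33.4%. Changes below are on the log2 scale of the scaled signal plus 16, ± SE, with limma's adjusted p.

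**Figure D1:**
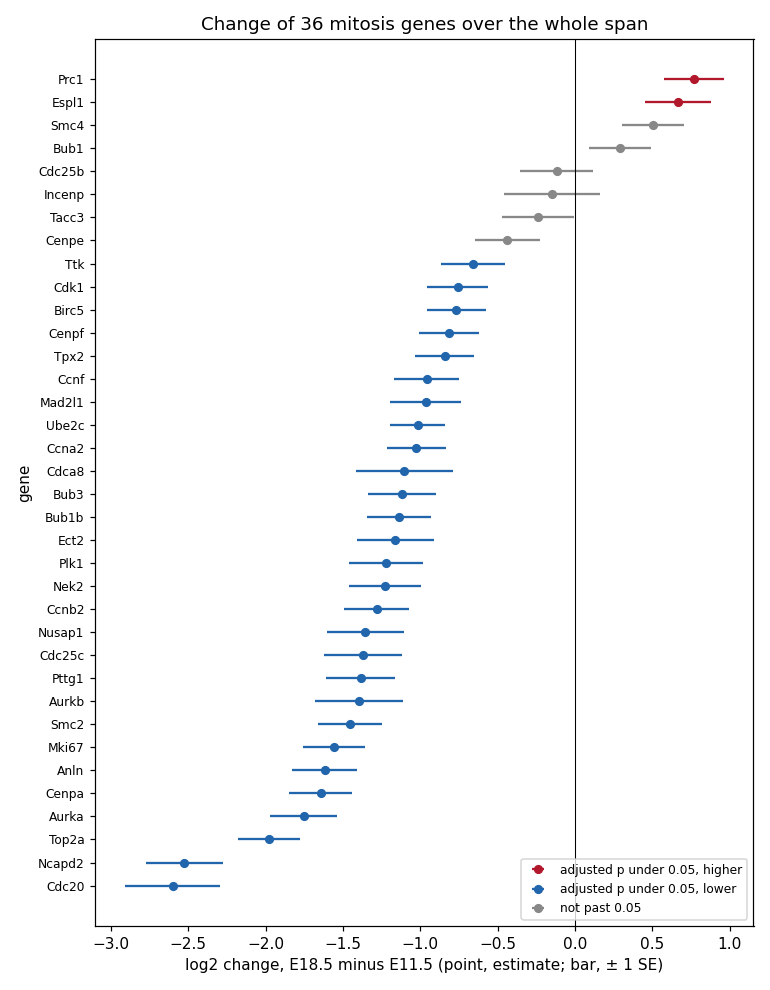
Change of each of the 36 mitosis genes from E11.5 to E18.5 on the log2 scale (points, estimate; bars, ± 1 SE; 2 arrays per stage). The 28 genes that passed the test as lower lie left of 0, Cdc20 and Ncapd2 farthest, and Prc1 and Espl1 are the 2 that passed as higher.

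Cdc20, the activator of the anaphase-promoting complex, had the largest fall by brightest probe set. Its other tested probe sets fell less, with changes of −0.80 and −1.22 over the span, the second not past the test. It read 2430 and 1148 at E11.5, 3352 on the E12.5 array, 1252 and 1425 at E14.5, 462 and 370.4 at E16.5, and 207 and 331 at E18.5. The fall was steepest between E14.5 and E16.5, and the change over the whole span was −2.60 ± 0.31 (adjusted p = 6.54e-05). Ncapd2, a regulatory subunit of condensin, read 653 and 639 at E11.5, 695 on the E12.5 array, 346 and 488 at E14.5, 269 and 168 at E16.5, and 112 and 87.0 at E18.5. It declined at every stage after E12.5, with a change of −2.52 ± 0.25 (adjusted p = 1.48e-05) over the span, with no overlap between the first and last stages. Top2a, the topoisomerase that untangles replicated chromosomes, read 2498 and 1927 at E11.5, 2170 on the E12.5 array, 1605 and 1580 at E14.5, 1179 and 1004 at E16.5, and 532 and 557 at E18.5. It fell by 4.06-fold in stage means, a change of −1.98 ± 0.20 (adjusted p = 1.80e-05). Ccnb2, the second B-type cyclin, read 869.6 and 672 at E11.5, 682 on the E12.5 array, 507 and 555 at E14.5, 288 and 210.4 at E16.5, and 287 and 324 at E18.5. Both arrays of E16.5 and of E18.5 lay below every earlier array, and the change over the span was −1.28 ± 0.21 (adjusted p = 7.94e-04).

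Many genes of this class share promoter elements known as the cell cycle genes homology region, written here TTTGAA or TTCGAA, and CCAAT boxes bound by NF-Y. Promoters of 31 of the 37 listed genes were found in RefSeq (GRCm38.p6); those of Ccna2, Cdc25c, Aurkb, Incenp, Tpx2 and Smc4 were not matched. The letters were searched on both strands in the 250 bases before the annotated start; TTCGAA is its own reverse complement and was counted once. TTTGAA or TTCGAA occurred in 14 of the 31 genes (45.2%), against 14.9% of 10732 genes tested on the arrays, and CCAAT in 25 (80.6%), against 40.2%. Both occurred together in 14 genes (45.2%), against 5.51%, and at least 2 CCAAT in 17 (54.8%), against 14.6%. The E2F sites TTTCCCGC, TTTGGCGC and TTTCGCGC were present in 2 genes, Cdk1 and Ncapd2 (6.45%), against 3.35%. A match describes the letters only and shows no binding.

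The 4 genes described before the promoters were picked because they hold both elements, largest fall first among the genes given on every array. Aurka, Cenpa, Anln, Nusap1 and Pttg1 fell further than Ccnb2 and held no match to the homology region in this window. The 250 bases before the start are shown for the 4 genes, 5′ to 3′ in the direction of transcription. Each match to the homology region or to CCAAT, on either strand, is in capitals:
Cdc20 (chr4:118437344-118437593, minus strand): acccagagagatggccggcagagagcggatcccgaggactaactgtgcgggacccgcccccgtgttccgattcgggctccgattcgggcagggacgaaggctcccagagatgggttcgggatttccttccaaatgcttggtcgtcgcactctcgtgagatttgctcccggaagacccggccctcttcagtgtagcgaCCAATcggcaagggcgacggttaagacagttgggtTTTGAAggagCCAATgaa
Ncapd2 (chr6:125191587-125191836, minus strand): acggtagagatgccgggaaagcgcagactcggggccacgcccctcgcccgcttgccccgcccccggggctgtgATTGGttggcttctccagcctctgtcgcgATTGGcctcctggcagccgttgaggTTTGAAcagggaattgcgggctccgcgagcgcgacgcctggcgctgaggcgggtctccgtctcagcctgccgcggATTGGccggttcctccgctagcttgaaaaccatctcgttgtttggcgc
Top2a (chr11:99024190-99024439, minus strand): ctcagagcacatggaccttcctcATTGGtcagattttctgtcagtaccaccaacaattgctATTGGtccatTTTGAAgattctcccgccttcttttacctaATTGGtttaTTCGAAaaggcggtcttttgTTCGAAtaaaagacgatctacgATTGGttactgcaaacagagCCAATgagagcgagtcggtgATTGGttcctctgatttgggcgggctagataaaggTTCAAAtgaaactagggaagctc
Ccnb2 (chr9:70421555-70421804, minus strand): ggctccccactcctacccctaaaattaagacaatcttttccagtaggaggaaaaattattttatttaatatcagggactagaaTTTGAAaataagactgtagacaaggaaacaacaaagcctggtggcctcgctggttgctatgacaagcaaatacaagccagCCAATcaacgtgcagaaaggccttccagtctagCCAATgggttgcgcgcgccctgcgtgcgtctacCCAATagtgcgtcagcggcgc

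The first base of the match nearest the start lay 18 bases upstream in Cdc20 for the homology region and 8 for CCAAT. Top2a carried 4 matches to the homology region and 6 to CCAAT, and Ccnb2 and Ncapd2 had 1 and 3 each. The elements were not limited to genes that fell. Espl1, which rose, held TTTGAA or TTCGAA 27 bases and CCAAT 44 bases before its start, and 1 of the 2 annotated starts of Prc1 held both. Among the 24 genes with a promoter that fell over the whole span 12 held both elements, while Anln, Nusap1, Pttg1, Mad2l1 and Birc5 fell with neither in this window.

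**Figure D2:**
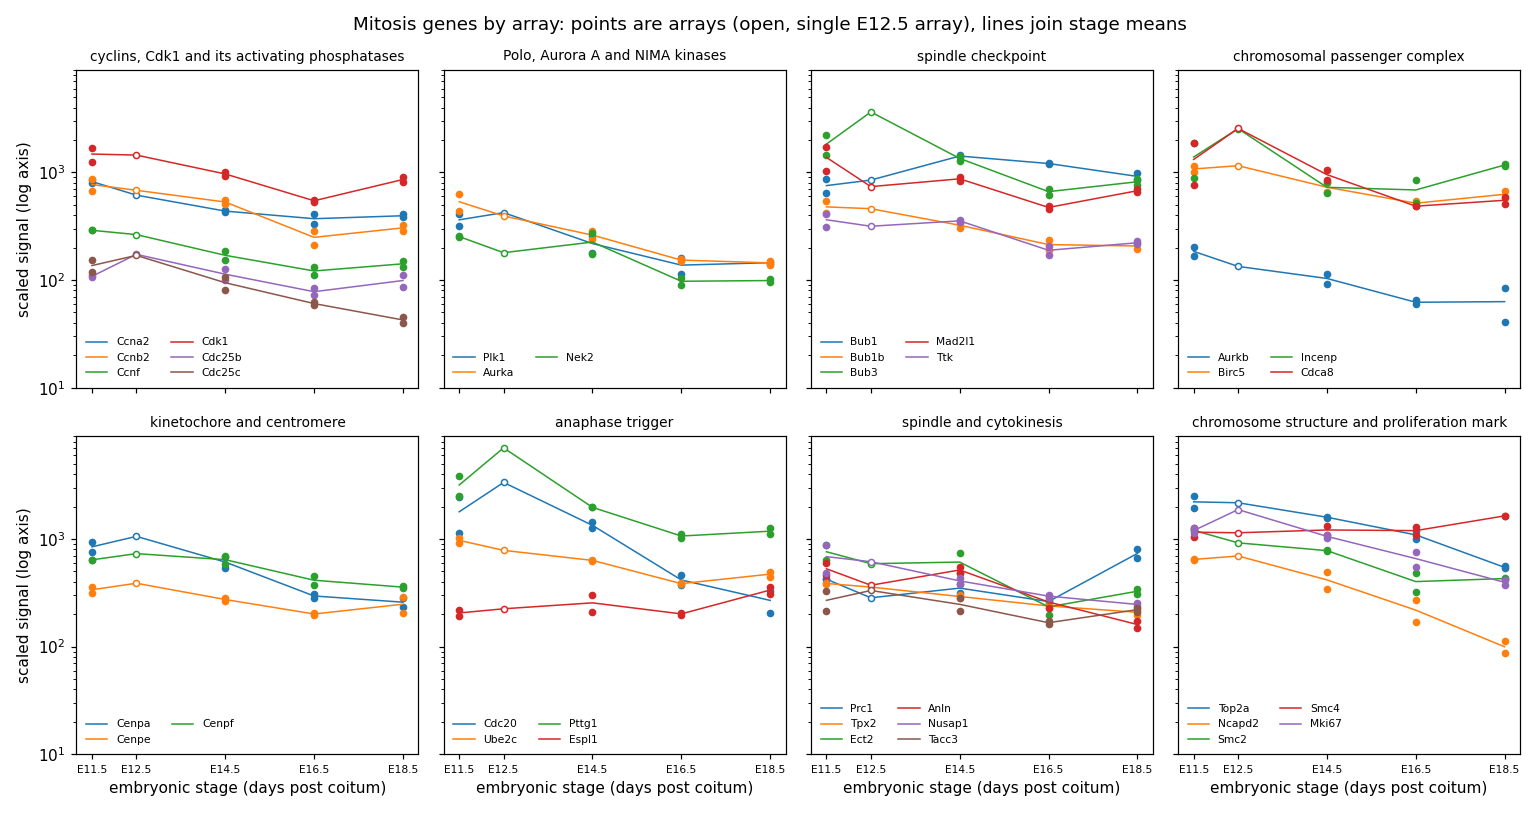
Scaled signal (log axis) of the 36 mitosis genes against embryonic stage, in panels by role; points are arrays, the open point is the single E12.5 array and lines join stage means. Most lines descend between E14.5 and E16.5 and stay low at E18.5, whereas the lines of Prc1, Espl1, Smc4 and Bub1 end above their E11.5 level, the first 2 past the test.

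Among the cyclins, Cdk1 and its activating phosphatases 5 of the 6 measured genes fell over the span, and the other, Cdc25b, did not pass. Besides Ccnb2, given above, the largest fall was that of Cdc25c, a phosphatase that activates Cdk1. Its signals were 153 and 119 at E11.5, 169.5 on the E12.5 array, 108 and 81.2 at E14.5, 62.2 and 58.7 at E16.5, and 39.9 and 45.4 at E18.5. The decline continued at every step after E12.5 on this probe set, and its change was −1.37 ± 0.25 (adjusted p = 0.00166). The second probe set of Cdc25c changed by −1.43 ± 0.34 from E11.5 to E14.5 (adjusted p = 0.0283). It changed by 0.73 ± 0.34 from E14.5 to E16.5 (adjusted p = 0.251) and by −1.61 ± 0.34 over the span (adjusted p = 0.00357). Cdc25b, a relative of Cdc25c, read 106 and 111 at E11.5, 173 on the E12.5 array, 101 and 126 at E14.5, 83.5 and 72.4 at E16.5, and 111 and 86.9 at E18.5. Its E11.5 and E18.5 arrays overlapped, and the change of −0.12 ± 0.24 did not pass the test (adjusted p = 0.744). Ccna2, the somatic A-type cyclin, fell by 1.03 ± 0.19 (adjusted p = 0.00168), Ccnf, an F-box protein, fell by 0.96 ± 0.21 (adjusted p = 0.00455), and Cdk1 fell by 0.76 ± 0.20 (adjusted p = 0.0132). Ccna2 had already fallen by E14.5 (−0.89 ± 0.19, adjusted p = 0.0169) on the probe set that stands for it, whereas its second changed by −0.41 ± 0.21 (adjusted p = 0.319) to E14.5 and by −0.76 ± 0.21 (adjusted p = 0.0737) from E14.5 to E16.5. Cdk1 ran from a mean of 1480 ± 312 at E11.5 (SD, n = 2) to 545 ± 16.1 at E16.5 and 859 ± 54.8 at E18.5, and its change between the last 2 of these stages did not pass the test (adjusted p = 0.193). The call on Cdk1 over the whole span was lost without E11.5 replicate 1 or either E18.5 array (log2 change −0.55 to −0.82, adjusted p 0.0715 to 0.117).

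All 3 Polo, Aurora A and NIMA kinases fell. Aurka, the kinase of centrosomes and spindle poles, read 633 and 435 at E11.5, 394 on the E12.5 array, 240.4 and 283 at E14.5, 157 and 149 at E16.5, and 150.1 and 139 at E18.5. Its signal was lower at each later stage mean, and the change over the span was −1.75 ± 0.22 (adjusted p = 9.71e-05). Plk1, which acts at entry into mitosis, at centrosomes and in cytokinesis, read 411 and 315 at E11.5, 423 on the E12.5 array, 179 and 257 at E14.5, 161 and 114 at E16.5, and 148 and 142 at E18.5. The 2 E14.5 arrays were apart, both below both E11.5 arrays, and the change was −1.22 ± 0.24 (adjusted p = 0.00246). Nek2, a kinase of centrosome separation, read 258 and 249 at E11.5, 179.5 on the E12.5 array, 176 and 275 at E14.5, 104 and 90.4 at E16.5, and 102 and 96.3 at E18.5. One E14.5 array exceeded both E11.5 arrays while the other was below them, and the drop came between E14.5 and E16.5 (−1.06 ± 0.23, adjusted p = 0.0318). Over the whole span Nek2 changed by −1.23 ± 0.23 (adjusted p = 0.00204). Its second tested probe set changed by −0.25 ± 0.22 and did not pass (adjusted p = 0.426).

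Of the 5 spindle checkpoint genes 4 fell and Bub1 did not. Bub1b, the gene of the checkpoint protein BubR1, read 540.4 and 416 at E11.5, 460.1 on the E12.5 array, 305 and 341 at E14.5, 235 and 192 at E16.5, and 222 and 193 at E18.5. From E14.5 on all arrays lay below both E11.5 arrays, and its change was −1.14 ± 0.21 (adjusted p = 0.00156). Bub3, the WD-repeat partner of Bub1 and BubR1, read 2203 and 1461 at E11.5, 3642 on the E12.5 array, 1280 and 1416 at E14.5, 705 and 620.3 at E16.5, and 762 and 875 at E18.5. It was highest on the E12.5 array and lowest at E16.5, with a change over the span of −1.12 ± 0.22 (adjusted p = 0.00246). Bub1, the checkpoint kinase at kinetochores, ran the other way. Its signals were 867 and 641 at E11.5, 848 on the E12.5 array, 1438 and 1400 at E14.5, 1206 and 1212 at E16.5, and 854 and 982 at E18.5. Both E14.5 arrays exceeded every other array, and the rise from E11.5 to E14.5 was 0.91 ± 0.20 (adjusted p = 0.0187), while from E11.5 to E18.5 the change was 0.29 ± 0.20 (adjusted p = 0.305). The second, dimmer probe set of Bub1 did not pass from E11.5 to E14.5 (0.68 ± 0.27, adjusted p = 0.170). From E14.5 to E16.5 it changed by −0.96 ± 0.27 (adjusted p = 0.0664). Mad2l1, the gene of the checkpoint effector Mad2, fell by 0.97 ± 0.23 (adjusted p = 0.00784), and Ttk, the kinase Mps1, fell by 0.66 ± 0.21 (adjusted p = 0.0329). Ttk had the smallest fall that passed. Its call was lost without E11.5 replicate 1 or either E18.5 array, and that on Mad2l1 without the same arrays, with adjusted p of 0.117 to 0.187 and of 0.0528 to 0.0698.

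In the chromosomal passenger complex, which corrects faulty attachments and guides cytokinesis, 3 of 4 genes fell. Aurkb, its kinase Aurora B, read 202 and 168 at E11.5, 134 on the E12.5 array, 92.5 and 114 at E14.5, 64.7 and 59.7 at E16.5, and 84.9 and 41.1 at E18.5. The later arrays all lay below both E11.5 arrays, although the E18.5 arrays lay apart, and the change was −1.40 ± 0.28 (adjusted p = 0.00305). Cdca8, the gene of borealin, read 1871 and 765 at E11.5, 2560 on the E12.5 array, 857 and 1050 at E14.5, 486 and 485 at E16.5, and 507 and 595 at E18.5. The E11.5 arrays were far apart, but both exceeded both E18.5 arrays, and the change was −1.10 ± 0.31 (adjusted p = 0.0193). It did not pass without E11.5 replicate 1 (−0.47, adjusted p = 0.146) or without either E18.5 array (adjusted p = 0.0651 and 0.131). Incenp, the scaffold of the complex, read 1883 and 896 at E11.5, 2548 on the E12.5 array, 639 and 815 at E14.5, 519 and 855 at E16.5, and 1193 and 1150 at E18.5. Here the E18.5 arrays lay between the E11.5 arrays, and the change of −0.15 ± 0.31 did not pass (adjusted p = 0.76). Birc5, the gene of survivin, fell by 0.77 ± 0.19 (adjusted p = 0.0102), a call lost without E18.5 replicate 1 (−0.67, adjusted p = 0.121).

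Of the 3 kinetochore and centromere genes 2 fell. Cenpa, the histone H3 variant that marks centromeres, read 939 and 752 at E11.5, 1058 on the E12.5 array, 540.1 and 680.4 at E14.5, 285 and 306 at E16.5, and 236 and 282 at E18.5. Its 4 latest arrays lay below all earlier ones, with a change of −1.65 ± 0.20 (adjusted p = 9.56e-05). Cenpf, a large kinetochore protein of late G2 and mitosis, read 639 and 642 at E11.5, 731 on the E12.5 array, 697 and 588 at E14.5, 456 and 372 at E16.5, and 366 and 348 at E18.5. The E11.5 and E14.5 arrays overlapped and the later ones were all lower, and its change was −0.81 ± 0.19 (adjusted p = 0.00718). The call was lost without either E18.5 array (adjusted p = 0.0561 and 0.0702). Cenpe, the kinetochore motor protein, read 360.3 and 315 at E11.5, 388 on the E12.5 array, 285 and 263 at E14.5, 197 and 205 at E16.5, and 207 and 289 at E18.5. Its E18.5 arrays were below both E11.5 arrays, but the change of −0.44 ± 0.21 did not pass (adjusted p = 0.141).

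The genes of the anaphase trigger were split, with 3 lower and 1 higher at E18.5. Pttg1, the gene of securin, the inhibitor of separase, read 3820 and 2526 at E11.5, 7023 on the E12.5 array, 1970 and 1964 at E14.5, 1021 and 1110 at E16.5, and 1259 and 1104 at E18.5. Every array from E14.5 on lay below both E11.5 arrays, and its change was −1.39 ± 0.22 (adjusted p = 6.45e-04). Espl1, separase itself, read 193 and 218 at E11.5, 225 on the E12.5 array, 211 and 299 at E14.5, 205 and 198 at E16.5, and 311 and 359.9 at E18.5. Both E18.5 arrays exceeded all others, and the rise from E11.5 was 0.67 ± 0.21 (adjusted p = 0.0364). The call on Espl1 was lost when any 1 of the 4 arrays of these stages was left out (log2 change 0.56 to 0.77, adjusted p 0.0561 to 0.196). Ube2c, the ubiquitin-conjugating enzyme of the anaphase-promoting complex, fell by 1.02 ± 0.18 (adjusted p = 0.00127), together with Cdc20.

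Among the 6 spindle and cytokinesis genes 4 fell and Prc1 rose. Anln, the gene of anillin, a scaffold of the contractile ring, read 595 and 463 at E11.5, 372 on the E12.5 array, 486 and 545 at E14.5, 293 and 227 at E16.5, and 148 and 173 at E18.5. Its E14.5 arrays lay within the range of the E11.5 arrays, and it then declined, with a change of −1.62 ± 0.21 (adjusted p = 1.41e-04) over the span. Nusap1, a microtubule-bundling protein, read 887 and 484 at E11.5, 615 on the E12.5 array, 382 and 434 at E14.5, 286 and 304 at E16.5, and 241 and 252 at E18.5. Its E11.5 arrays were apart, and the change was −1.36 ± 0.25 (adjusted p = 0.00152). Tacc3, which helps stabilise spindle microtubules, read 326 and 212 at E11.5, 332 on the E12.5 array, 281 and 214 at E14.5, 162 and 171 at E16.5, and 212 and 229 at E18.5. The E11.5 and E18.5 arrays overlapped, and its change of −0.24 ± 0.23 did not pass (adjusted p = 0.474). Ect2, the exchange factor that activates RhoA for cytokinesis, fell by 1.16 ± 0.25 (adjusted p = 0.00414), and Tpx2, an activator of Aurora A, fell by 0.84 ± 0.19 (adjusted p = 0.00558). The fall of Tpx2 did not pass without E18.5 replicate 1 (−0.77, adjusted p = 0.0684).

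Prc1, which bundles the antiparallel microtubules of the central spindle, had the largest rise. It read 422 and 424 at E11.5, 284 on the E12.5 array, 317 and 383 at E14.5, 268 and 257 at E16.5, and 804 and 664 at E18.5. Its stage mean was lowest at E16.5 and highest at E18.5, with both E18.5 arrays above all others. The rise from E16.5 to E18.5 was 1.43 ± 0.19 (adjusted p = 0.00323), and that from E11.5 was 0.77 ± 0.19 (adjusted p = 0.0108). Its second probe set read 386 and 284 at E11.5, 286 on the E12.5 array, 216 and 282 at E14.5, 182 and 303 at E16.5, and 809 and 809.9 at E18.5, and it rose by 1.72 ± 0.25 (adjusted p = 0.00534) and by 1.25 ± 0.25 (adjusted p = 0.00273) in the same comparisons. Without E18.5 replicate 1 neither rise of the first probe set passed, and that from E11.5 was 0.63 (adjusted p = 0.130).

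Of the genes of chromosome structure 4 fell. Besides Top2a and Ncapd2 these were Smc2, a core condensin ATPase (−1.46 ± 0.21, adjusted p = 2.79e-04), and Mki67, the gene of the proliferation antigen Ki-67 (−1.56 ± 0.20, adjusted p = 1.34e-04). Smc4, the partner of Smc2 in condensin, read 1274 and 1039 at E11.5, 1142 on the E12.5 array, 1333 and 1093 at E14.5, 1304 and 1088 at E16.5, and 1642 and 1636 at E18.5. The E18.5 arrays exceeded all earlier ones, and the change of 0.51 ± 0.20 did not pass (adjusted p = 0.0823). It passed as higher on signals left as deposited (0.64, adjusted p = 0.0224) and after quantile normalization (0.89, adjusted p = 0.00422), and 1 of its other probe sets rose by 0.68 ± 0.22 (adjusted p = 0.0362). The estimates for the 2 core ATPases of condensin had opposite signs, and whether they differed was not tested.

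By interval, most calls came between E14.5 and E16.5. In that interval 10 of the 36 genes fell (Ccnb2, Cdk1, Nek2, Bub3, Ttk, Cenpa, Cdc20, Ect2, Anln and Smc2), against 2.53% of all genes, and 0 rose, against 1.16%, with 0 higher also at an unadjusted limma p under 0.05 and 23 lower. All 36 estimates were negative, against 53.9% of all genes tested, with a median of −0.61. In 34 genes both E14.5 arrays lay above both E16.5 arrays, against 30.6%. The largest falls were Cdc20 at −1.65 ± 0.31 (adjusted p = 0.0163), Ect2 at −1.31 ± 0.25 (adjusted p = 0.0179), Nek2 at −1.06 ± 0.23 (adjusted p = 0.0318) and Ccnb2 at −1.06 ± 0.21 (adjusted p = 0.0223). These 4 arrays shared 1 wash run. Fitted alone, they gave 6 falls. The limma count was 0 without E14.5 replicate 2 or without E16.5 replicate 2 (19 and 15 at an unadjusted p under 0.05), 2 without E14.5 replicate 1 or either E18.5 array, 6 without E16.5 replicate 1, and 15 and 16 without E11.5 replicate 1 and 2. It was 3 without the filter on low signals and 0 without limma's intensity trend (20 at an unadjusted p under 0.05).

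From E11.5 to E14.5 fewer genes passed. Ccna2 (−0.89 ± 0.19, adjusted p = 0.0169) and Aurka (−0.97 ± 0.22, adjusted p = 0.0224) fell and Bub1 rose, 2 lower and 1 higher, against 2.13% and 3.48% of all genes. The estimate was negative in 32 of the 36 genes, against 52.9% of all genes, with a median of −0.46. Without E11.5 replicate 2 that median was −0.64, against −0.61 from E14.5 to E16.5, so the order of the 2 intervals by median rested on 1 array. Here the 2 stages differed in run, and 1 array decided the count. It was 8, all lower, without E11.5 replicate 2, but 1, higher, without E11.5 replicate 1, and 0 in limma without E14.5 replicate 1 or replicate 2 (7 and 18 at an unadjusted p under 0.05). The rise of Bub1 did not pass without E11.5 replicate 2 or any 1 of the E14.5 and E18.5 arrays.

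From E16.5 to E18.5, Top2a fell (−0.98 ± 0.20, adjusted p = 0.0382) and Prc1 rose, against 0.271% lower and 0.842% higher among all genes. Only 14 of the 36 estimates were negative there, against 47.6%, and the median was 0.13. The call on Top2a was lost without any 1 of the E14.5, E16.5 or E18.5 arrays, and without E18.5 replicate 1 neither gene passed in limma (5 genes at an unadjusted p under 0.05).

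**Figure D3:**
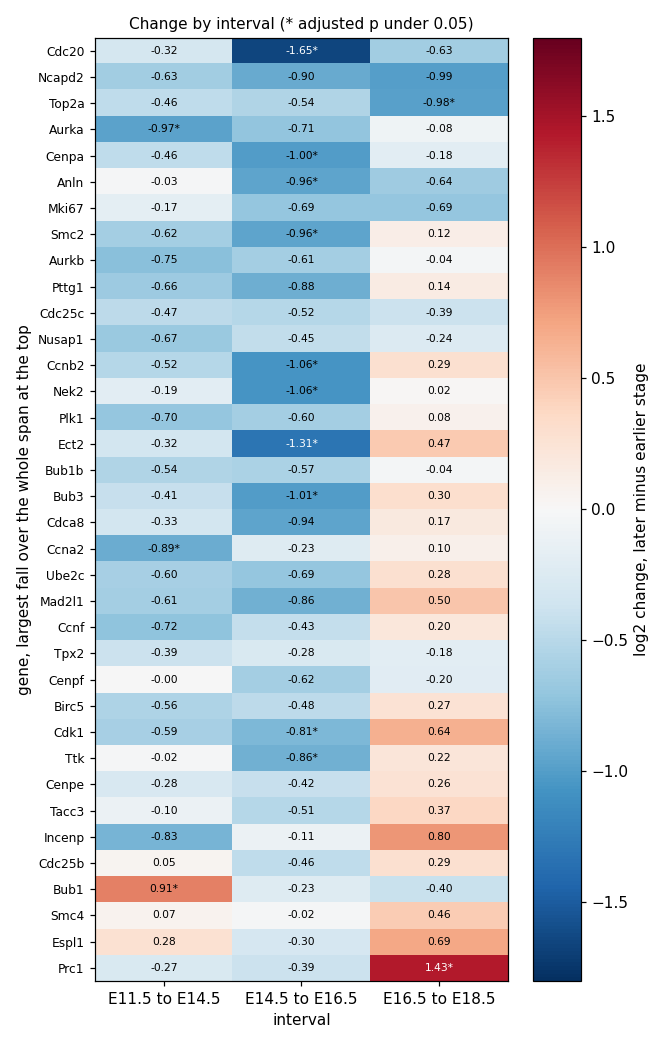
Log2 change of the 36 mitosis genes (rows, largest fall over the span at the top) in 3 intervals (columns, later minus earlier stage), with an asterisk where the adjusted p was under 0.05. The middle column, E14.5 to E16.5, is negative in every gene, while most values in the last column lie near or above 0, with Prc1 the highest at 1.43.

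The step with the largest fall was E14.5 to E16.5 in 23 genes, E11.5 to E14.5 in 9 and E16.5 to E18.5 in 4. The stage mean was highest at E11.5 in 30 genes, at E14.5 in 3 (Cdc25b, Bub1 and Cenpf) and at E18.5 in 3 (Prc1, Espl1 and Smc4). It was lowest at E16.5 in 22 genes and at E18.5 in 12, among them Cdc20, Ncapd2, Top2a, Anln, Mki67 and Cdc25c, so not every gene stopped falling at E16.5. The profiles were alike in most genes. Over the 8 arrays outside E12.5, which share stages and runs, the correlation of a gene with the mean of the other members had a median of 0.914, and it was at least 0.8 in 28 genes. It was lowest for Smc4 (−0.38), Bub1 (−0.32), Espl1 (−0.29), Prc1 (−0.01) and Incenp (0.40).

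The duplicates at E11.5 differed in this class of genes. E11.5 replicate 1 exceeded replicate 2 in 30 of the 36 genes, against 57.7% of all genes, and the median gap was 0.34 on the log2 scale, against 0.07 over all genes. The corresponding median gaps of the members were −0.15 at E14.5, 0.15 at E16.5 and −0.05 at E18.5. Without E11.5 replicate 1 the whole-span comparison had 24 falls and 1 rise with a median change of −0.94, and without replicate 2 it had 28 and 1 with −1.33.

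The single E12.5 array lay above both E11.5 arrays in 16 genes, below both in 12 and between them in 8. The same counts were not made over all genes, so these are no result about the members. The 5 genes farthest above the E11.5 mean were Pttg1 (1.17 on the log2 scale), Cdca8 (1.09), Bub3 (1.01), Cdc20 (1.00) and Incenp (0.96), named after their values were seen. In all 5 the probe set that stands for the gene has a name ending in s or x, which marks probes that can also match other transcripts. The 3 other genes with such a probe set, Nek2, Aurkb and Prc1, were below both E11.5 arrays on the E12.5 array. Other probe sets of the same genes did not always follow. For Bub3 the second probe set read 221 on the E12.5 array, below its 341 and 257 at E11.5, and for Cdc20 it read 901, between 1005 and 675. The part of the Actb ratio on that array was not tested.

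The size of a fall depended on the probe set. Of the 71 tested probe sets 40 were lower at E18.5 than at E11.5, 4 higher and 27 neither, where 26.2% of all 27510 probe sets tested passed in either direction (3981 lower and 3234 higher). No gene had probe sets called in both directions. Among the 21 genes with more than 1 tested probe set, all fell in 5 (Ccna2, Ccnf, Cdc25c, Aurkb and Top2a), all rose in Prc1, some fell in 12, some rose in Smc4 alone, and none passed for Bub1 and Tacc3. For Cdc20 the probe set above gave −2.60, whereas its second read 1005 and 675 at E11.5, 901 on the E12.5 array, 634 and 785 at E14.5, 412 and 543 at E16.5, and 438 and 495 at E18.5. That is a change of −0.80 ± 0.23 (adjusted p = 0.0208), and its remaining probe set changed by −1.22 ± 0.45 (adjusted p = 0.0606). A second probe set of Bub1b fell further than the first, with a change of −2.20 ± 0.22 (adjusted p = 1.97e-05), while its remaining one, a dim probe set, changed by 0.20 ± 0.36 (adjusted p = 0.716). For Incenp, where the first did not pass, a dim probe set fell by 1.55 ± 0.44 (adjusted p = 0.0193). The fall rested on 1 probe set of 2 for Nek2, Ncapd2, Ttk and Cenpf, on 1 of 3 for Bub3 and on 2 of 5 for Smc2. The second probe set of Ncapd2, far dimmer at 69.8 and 115 at E11.5, changed by −0.67 ± 0.34 (adjusted p = 0.163). The other 13 probe sets of the members were too dim to be tested.

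**Figure D4:**
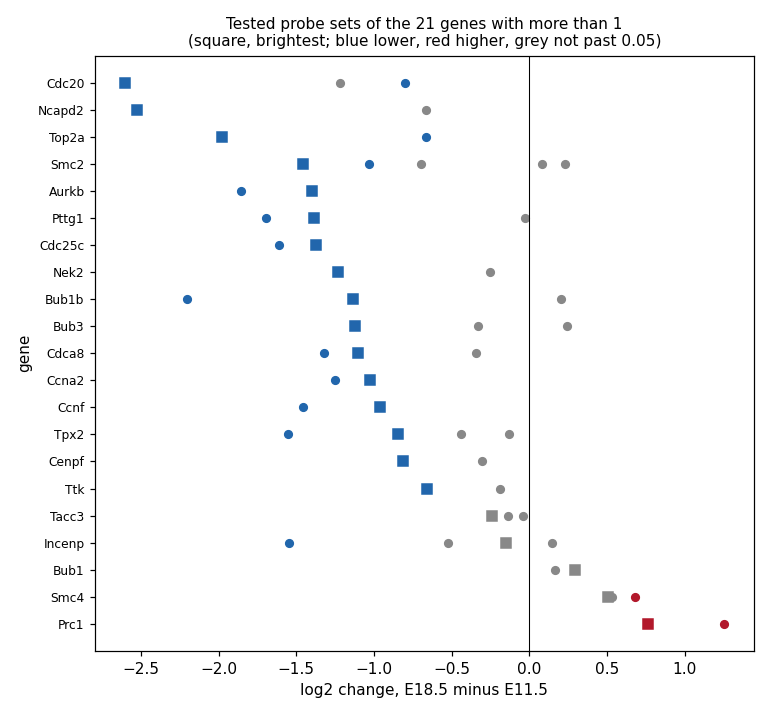
Log2 change from E11.5 to E18.5 of each tested probe set of the 21 genes with more than 1 (squares, brightest; circles, others; blue lower, red higher and grey not past an adjusted p of 0.05). Blue and red points do not occur in the same gene, and the points of a gene can lie far apart, from −2.20 to 0.20 in Bub1b and from −2.60 to −0.80 in Cdc20.

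Genes of the same machinery outside the list were counted in the same fit, to be read against the 16.4% lower and 13.3% higher among all genes. Of 36 tested genes listed under kinetochore and centromere 11 were lower and 1 higher at E18.5 than at E11.5, with a median of −0.22. Cenpi, of the inner kinetochore, fell by 1.66 ± 0.28 (adjusted p = 8.94e-04). Mad2l2, counted in this list without being a core kinetochore gene, fell by 1.65 ± 0.28 (adjusted p = 0.00104). Its E18.5 signals of 26.2 and 31.9 lay in the range of unspiked controls, so the size of that fall is not exact. Spc25, a subunit of the Ndc80 complex, fell by 1.35 ± 0.21 (adjusted p = 5.54e-04), whereas Ndc80 itself changed by 0.13 ± 0.24 (adjusted p = 0.719). Mis18a, which helps load the centromeric histone, rose by 1.48 ± 0.23 (adjusted p = 4.27e-04). Of 35 spindle, cytokinesis and condensin genes 21 were lower and 1 higher, with a median of −0.78. Depdc1a fell by 2.59 ± 0.29 (adjusted p = 3.90e-05), a size that is not exact, since 1 of its E18.5 signals, 29.5, lay in the range of unspiked controls. The nuclear lamin gene Lmnb1 fell by 2.05 ± 0.22 (adjusted p = 3.59e-05) and Ncaph, the kleisin of condensin I, fell by 1.93 ± 0.24 (adjusted p = 8.87e-05). Ncapg, another condensin I subunit, read 415 and 222 at E11.5, 561 on the E12.5 array, 443 and 392 at E14.5, 432 and 511 at E16.5, and 553 and 481 at E18.5, and it rose by 0.73 ± 0.25 (adjusted p = 0.0477).

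The ubiquitin ligase that ends mitosis had a share of calls near that of all genes (16.4% lower and 13.3% higher). Of 18 tested genes of the anaphase-promoting complex and its regulators 3 were lower and 3 higher, with a median of −0.10. Cdc27 (−0.95), Cdc16 (−0.89) and the inhibitor Fbxo5 (−1.20) fell, and Anapc15 (1.31), Ube2s (1.14) and Anapc11 (0.85) rose. Among 19 genes of entry into and exit from mitosis 3 were lower, also near the share among all genes, with a median of −0.21. These were Arpp19 (−1.07), the phosphatase gene Ppp1cc (−1.03) and Cdc25a (−0.77). Cks2, a small Cdk-binding protein, read 3916 and 2416 at E11.5, 6117 on the E12.5 array, 2095 and 2604 at E14.5, 1030 and 1032 at E16.5, and 2490 and 2850 at E18.5. It fell from E14.5 to E16.5 (−1.17 ± 0.24, adjusted p = 0.0251) and rose from E16.5 to E18.5 (1.36 ± 0.24, adjusted p = 0.0199).

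Of 21 transcriptional regulators of the programme 8 were lower and 1 higher, with a median of −0.43. E2f5 fell by 1.59 ± 0.32 (adjusted p = 0.00296). E2f8, an E2F repressor, was lower as well (−1.95 ± 0.48, adjusted p = 0.00995), but its E18.5 signals of 25.6 and 2.18 lay in the range of unspiked controls, so the size of its fall is not exact. Rbl2, the pocket protein p130 of the repressive DREAM complex, rose by 0.83 ± 0.23 (adjusted p = 0.0176). Of the 3 subunits of NF-Y, the CCAAT-binding factor, Nfya fell by 0.85 ± 0.20 (adjusted p = 0.00708) and Nfyb fell by 0.74 ± 0.21 (adjusted p = 0.0176), while Nfyc changed by −0.15 ± 0.18 (adjusted p = 0.578). Mybl2, B-Myb, which activates late cell cycle genes, read 156 and 196 at E11.5, 207 on the E12.5 array, 64.8 and 123 at E14.5, 29.6 and 33.4 at E16.5, and 133 and 140.3 at E18.5. It dropped from E14.5 to E16.5 (−1.16 ± 0.27, adjusted p = 0.0414) and rose again by E18.5 (1.69 ± 0.27, adjusted p = 0.0109). The E16.5 signals of Mybl2 lay in the range of unspiked controls, so the sizes of both changes are not exact.

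Another list held genes of the germ line, of meiosis and of the cell cycle, and not all of them are relatives of the members. Of its 12 tested genes 6 were higher, 2 lower and 4 not past the test (Ccna1, Aurkc, Ccne1 and Ccne2) at E18.5 against E11.5, with a median of 1.23. Ccnb3, a cyclin of meiosis, read 8.45 and 7.33 at E11.5, 16.9 on the E12.5 array, 41.4 and 53.9 at E14.5, 193 and 201 at E16.5, and 166 and 235 at E18.5. Its E11.5 signals lay under the unspiked controls, so the size of its rise, 3.16 ± 0.28 (adjusted p = 6.22e-06), is not exact. Smc1b, the meiotic cohesin subunit, rose by 5.18 ± 0.23 (adjusted p = 1.25e-08), a size that is not exact either, since its E11.5 signals of 13.2 and 29.5 lay in the range of these controls. Cpeb1, which regulates translation in oocytes, rose by 3.09 ± 0.24 (adjusted p = 2.37e-06), and 1 of its E11.5 signals, 32.7, lay in that range as well. Rec8, the meiotic kleisin, peaked at E14.5, with 204 and 239, and fell to E16.5 (−2.01 ± 0.31, adjusted p = 0.00719). Sgo2a, the protector of centromeric cohesin, and Cdk2 were the 2 that fell.

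Signals of cell type markers moved over the same stages, and cell numbers were not measured. The summed signal of 14 germ cell markers was 1745 to 2191 at E11.5, 4601 on the E12.5 array, 11960 to 12400 at E14.5, 7835 to 8412 at E16.5 and 14110 to 14440 at E18.5, and 12 of the 14 rose over the span and 2 fell (Pou5f1 and Dnd1). At E11.5 Tdrd1 and Tex101 lay at or under the unspiked controls, and at E18.5 none did. For 14 gonadal somatic markers the sum went from 11810 to 13060 at E11.5 through 9003 to 9947 at E14.5 and 9327 to 9476 at E16.5 to 6714 to 7172 at E18.5, with 7 lower and 4 higher, and none lay under the controls at any stage. The sum of 9 erythroid markers was 21710 to 29050 at E11.5, 12100 to 14000 at E14.5, 1227 to 1602 at E16.5 and 1604 to 1753 at E18.5, led by the embryonic globins Hba-x, Hbb-bh1 and Hbb-y. Over the span 3 of 7 tested erythroid genes, these globins, were lower. Gata1 (1.03) and Alas2 (0.83) were higher, and Slc4a1 and Klf1 did not pass. The sum of 9 endothelial markers was 1302 to 1665 at E11.5, 596 to 724 at E14.5, 883 to 981 at E16.5 and 656 to 716 at E18.5, with 5 of 8 tested genes lower and none higher.

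Markers of neighbouring tissue moved as well. Those of the exocrine pancreas summed to 1137 to 1577 at E11.5, 251 to 265 at E14.5 and 194 to 250 at E18.5, with Cpa1 and Pnliprp2 falling. The hepatocyte sum was 142 to 153 at E11.5, 1312 to 3409 at E14.5, 612 to 942 at E16.5 and 3573 to 3908 at E18.5, and all 7 measured markers rose, 4 of them (Afp, Fgb, Serpina1b and Ttr) from at or under the controls. Macrophage and leukocyte markers summed to 836 to 1119 at E11.5 and 655 to 712 at E18.5, and 1 of 8 tested genes, Csf1r, fell. For mesonephros and ducts the sum was 148 to 195 and 215 to 239, with 1 of 3 tested genes higher. The part of these shifts in the fall of the mitosis genes was not tested. Between E14.5 and E16.5, where 10 mitosis genes fell, the germ cell and erythroid sums fell as well and the gonadal somatic ranges overlapped. The sums do not stand for all their markers. Of the 14 germ cell markers 5 were lower (Dazl, Ddx4, Dppa3, Pou5f1 and Stra8) and 1 higher (Tdrd9), with a median change of −0.21. Of the 7 tested erythroid genes the 3 embryonic globins were lower and 0 higher. Among all genes 2.53% were lower and 1.16% higher in this interval.

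Outside the lists, the genes whose profile over the 8 arrays was most like the mean of the mitosis genes were Rap1a (r = 0.996), a small GTPase, Sae1 (0.995), a subunit of the SUMO-activating enzyme, Mterf2 (0.991), Nsmce4a (0.990), a subunit of the Smc5/6 complex, and 2610044O15Rik8 (0.989). Rap1a had signals of 3273 and 2153 at E11.5, 2035 on the E12.5 array, 1329 and 1462 at E14.5, 614 and 445 at E16.5, and 682 and 697 at E18.5. The next were Stoml2, Cdc73, Cnot2, Acyp1 and Csnk2a1, each with r of 0.988 or 0.989. These correlations describe 8 arrays that share stages and runs.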

How the data were processed

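Transcripts of whole embryonic mouse ovary were measured on Affymetrix Mouse430_2 oligonucleotide arrays, 2 per stage at 5 stages. Trizol extraction of total RNA and biotin labelling in a single cycle preceded hybridisation, per the labels. The deposited value table gives intensity values on a linear scale, 1 per probe set, which the authors had scaled: all arrays have a trimmed mean (2% off each end) of 125. The program behind these signals is not given in the sources used here. Other deposited content, in the instrument files, is hybridisation, wash and scan settings, used for array type, wash run and fluidics module.

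Of 45037 probe sets that are not controls, 34945 carried 1 gene symbol in the platform annotation, 932 several and 9160 none; matching gene identifiers to RefSeq updated 0 symbols. Arrays were scaled to a common 75th percentile of 141.6 (array medians as deposited were 36.7 to 52.4 on 9 arrays and 91.1 on E12.5 replicate 2) and taken as log2 of the signal plus 16. Testing was limited to probe sets that reached the median of all values on 2 or more of the 9 arrays, 27510 probe sets and 13305 genes. The brightest tested probe set stood for a gene, and brightness was its mean log2 value. A linear model with a mean for each stage was fitted in limma 3.58.1 (R 4.3.3), with empirical Bayes moderation along an intensity trend, and gave two-sided tests with 4 residual and 9.26 prior degrees of freedom, and Benjamini-Hochberg adjustment ran over all probe sets tested. The fit was also run on simulated data in which the changed probe sets were known, and the outcome is not given here. Python 3.11.15 with pandas 2.3.3 and numpy 2.4.6 made the tables, and matplotlib 3.10.9 the figures.

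The members, gene lists, roles and tests were chosen with earlier results of these data known. Values on every array are given for the 2 members of each role with the largest change over the whole span. They are also given for the member with the smallest and for every member called higher in any comparison. Genes named from the other lists are a selection that did not keep to size of change. Larger called changes, such as those of Pimreg (−2.21) and Sycp3 (5.58) over the span, are not described. E12.5 replicate 2 was left out, and E12.5 replicate 1 enters the fit as a single array. Alternatives were all 10 arrays, each array left out, a replicate block, signals as deposited, quantile normalization, 1 or 64 added before the logarithm, other filters, no intensity trend, array weights, the mean over a gene's probe sets, and the arrays of 1 run.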

Additional observations from a re-analysis of the deposited data

How the results depend on the processing

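With all 10 arrays, E12.5 replicate 2 included, limma called 0 member genes in each of the 4 comparisons (at an unadjusted p under 0.05, 6 from E11.5 to E18.5, 1 from E14.5 to E16.5, 1 from E16.5 to E18.5 and 0 from E11.5 to E14.5). Otherwise the count from E11.5 to E18.5, 30 in the report, was 27 to 30, and 21 to 30 with 1 array left out, with a median change of −0.83 to −1.33. From E14.5 to E16.5 (10 in the report) it was 3 without the filter on low values, 0 without the intensity trend (20 at an unadjusted p), 6 with the arrays of 1 run alone, and 0 to 16 with 1 array left out. From E11.5 to E14.5 (3) it was 0 without the trend (13 unadjusted), 8 with the mean over probe sets, and 0 to 8 with 1 array left out, and without E11.5 replicate 1 the balance reversed to 1 higher. From E16.5 to E18.5 (2) it was 1 with the replicate block, without the filter or without the trend, 1 higher in each case, and 0 to 2 with 1 array left out. Replicate numbers did not pair the arrays, since the differences between duplicates correlated at −0.05 to 0.03 between stages; the replicate block gave 30, 9 and 3 calls in the other comparisons. The sign of 3 changes that had not passed turned: Cdc25b to 0.032 without E18.5 replicate 2 (−0.27 to 0.03 over the arrays left out), Incenp to 0.38 without E11.5 replicate 1 (−0.68 to 0.38) and to 0.25 after quantile normalization, and Tacc3 to 0.05 without E11.5 replicate 1 (−0.53 to 0.05). The causes were not tested. Fluidics module was not fitted as a block: outside E12.5 and E16.5 it is the replicate number. With 2 arrays per stage, smaller changes and dim probe sets are not resolved.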
